A study of Mus musculus with 20 samples.

Results

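Chromosome 14 of the mouse was described gene by gene in 4 induced pluripotent stem cell (iPSC) lines that were differentiated through embryoid bodies (EB). The genes were chosen by position and by level, as those on chromosome 14 (GRCm38) with a mean count of 50 or more over the 20 libraries. They numbered 480 of the 2532 chromosome 14 genes in the count table, while 993 others had a nonzero value below that mean and 1059 were at 0 in every library. Over all chromosomes, 13068 genes reached the same mean. The chromosome was selected on the readout itself, because its genes were shifted in the wild type line WT#20D-17, so the ratios of that line to the others are given as a description without a test.

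RNA-seq was carried out on 1 library for each of 4 lines on days 0, 3, 5, 7 and 14 as the titles give them, and the treatment protocol in the labels gives the last time as 10 days. The wild type lines were WT#1-4 and WT#20D-17, and the other 2, Nox4-/- #5-8 together with Nox4-/- #5-23, came from mice that lack Nox4, a NADPH oxidase that makes reactive oxygen species. By the study's methods, iPSC lines were made from embryonic fibroblasts with retroviruses that carry Sox2, Oct4, c-Myc and Klf4, were grown on fibroblast feeder cells with LIF, and were aggregated in hanging drops without LIF. The study's text describes 3 of the lines, and WT#20D-17 was known here from the labels. How WT#20D-17 was derived is not described in that text. Each line is 1 clone, so a difference between 2 lines cannot be told apart from a difference between 2 clones, and the 5 libraries of a line are time points and not replicates.

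Chromosome 14 carries genes that act at the start of germ layer formation, among them Otx2, a homeobox factor of the anterior epiblast and forebrain, Bmp4, a signal for mesoderm, and the endoderm factors Gata4 and Sox7. It also carries the paired cardiac myosin genes Myh6 and Myh7, the retinoblastoma gene Rb1, and the host gene of the miR-17-92 cluster. Between these lie many genes that nearly every cell uses, for ribosomes, nuclear transport, the secretory pathway and mitochondria.

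The 5 promoters printed here belong to genes at both ends of the range and at its middle. Otx2 and Myh7 were far higher in WT#20D-17, Nisch lay near the chromosome's median ratio, and Itm2b and Cnmd were far lower. The sequences are the 250 bases before the start site in RefSeq (GRCm38.p6), written 5′ to 3′ on the gene's own strand, with each CG dinucleotide in capitals. All 5 genes lie on the minus strand.
Otx2 (chr14:48667645-48667894): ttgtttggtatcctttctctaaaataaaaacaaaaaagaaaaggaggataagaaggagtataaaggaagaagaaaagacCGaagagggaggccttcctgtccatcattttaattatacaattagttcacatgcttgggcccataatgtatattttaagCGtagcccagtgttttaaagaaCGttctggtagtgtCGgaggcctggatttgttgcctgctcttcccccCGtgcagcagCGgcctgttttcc
Myh7 (chr14:54994627-54994876): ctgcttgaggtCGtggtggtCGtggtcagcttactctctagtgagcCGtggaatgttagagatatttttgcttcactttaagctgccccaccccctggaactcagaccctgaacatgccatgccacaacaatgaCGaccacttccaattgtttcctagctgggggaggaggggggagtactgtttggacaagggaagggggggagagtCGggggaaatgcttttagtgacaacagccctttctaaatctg
Nisch (chr14:31206827-31207076): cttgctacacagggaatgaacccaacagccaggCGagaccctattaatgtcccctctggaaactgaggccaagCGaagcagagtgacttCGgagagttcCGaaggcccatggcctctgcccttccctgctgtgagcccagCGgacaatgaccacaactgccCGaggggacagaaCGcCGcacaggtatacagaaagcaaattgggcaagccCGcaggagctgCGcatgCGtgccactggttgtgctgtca
Itm2b (chr14:73385290-73385539): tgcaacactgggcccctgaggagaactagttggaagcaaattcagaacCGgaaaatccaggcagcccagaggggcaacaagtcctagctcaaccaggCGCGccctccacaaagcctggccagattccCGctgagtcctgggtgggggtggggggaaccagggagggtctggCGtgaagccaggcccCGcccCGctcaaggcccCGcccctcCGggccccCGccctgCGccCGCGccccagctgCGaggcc
Cnmd (chr14:79662184-79662433): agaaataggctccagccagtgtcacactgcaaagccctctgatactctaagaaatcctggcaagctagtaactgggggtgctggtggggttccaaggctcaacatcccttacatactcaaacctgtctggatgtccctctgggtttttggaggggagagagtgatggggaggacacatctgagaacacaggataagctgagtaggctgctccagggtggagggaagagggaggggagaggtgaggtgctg
These windows held 6 CG in Otx2, 5 in Myh7, 11 in Nisch, 14 in Itm2b and none in Cnmd. The letters TATAAA (or TTTATA, their complement on the other strand) were found in the Otx2 window alone among the 5. A RefSeq promoter was matched by symbol for 338 of the 480 genes, and 76.3% of these held 10 or more CG in 250 bases, beside 38.2% of 27025 promoters of all genes, 1 per gene. Among the matched genes that were higher in WT#20D-17 in every pairing, those with a mean log2 ratio above 2 held a median of 10.5 CG (30 genes) and those at 1 or less a median of 19 (46 genes). The 36 matched genes that were lower in every pairing held a median of 12, and TATAAA was in 4.5% of the 111 higher ones, 8.3% of the 36 lower ones and 13.0% of all promoters. The promoters of all genes were not limited by expression level, while the members were chosen by it. No set of expressed genes from other chromosomes was compared, so neither the CG nor the TATAAA share is read as a trait of chromosome 14. A match is a match of letters in this window and no more.

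Library totals lay between 20294935 and 27707994 counts. Nox4, the targeted gene, had 0 to 2 counts in the Nox4-/- libraries, 3 to 22 in WT#1-4 and 56 to 203 in WT#20D-17. Of 6 pluripotency markers, none stayed under 0.5 CPM on all days in WT#20D-17, which had 9335 counts of Nanog and 1016 of Zfp42 on day 0, and their summed level went from 2778 CPM (counts scaled to library size, with TMM factors) on day 0 to 77.7 on day 14. In the other 3 lines Zfp42 was at 0 in all 15 libraries, Esrrb had at most 5 counts and Nanog at most 27, while Pou5f1, the gene of the introduced factor Oct4, stayed between 1278 and 5760 CPM. Sox2, another of the 6 and an introduced factor, stood at 83.3 to 154 CPM in Nox4-/- #5-8 and 137 to 202 in Nox4-/- #5-23, beside 1.04 to 33.6 in WT#1-4 and 6.98 to 195 in WT#20D-17. Dppa5a, the last of the 6, had 21962 counts on day 0 in WT#20D-17 and at most 56 in any library of the other 3 lines. The 2 Nox4-/- lines thus had Pou5f1 and Sox2 but little or no Zfp42, Esrrb, Nanog and Dppa5a. WT#1-4 had Pou5f1, less Sox2 and the same lack. Counts from introduced copies of Pou5f1 and Sox2 were not separated from those of the cells' own genes. The levels of these 2 genes therefore cannot show whether the label of the cells as iPSC is met. Of the other marker lists, fibroblast genes reached a summed 2809 CPM, endoderm genes 1028 and mesoderm genes 867 in WT#20D-17, against at most 106, 2.28 and 38.4 in any library of the other lines, and the ectoderm and neural list spanned 35.6 to 99.0 CPM in WT#20D-17 and 91.1 to 188 in the others. In bulk RNA, fewer cells of a type and less RNA per cell cannot be told apart.

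The shift of chromosome 14 was small per gene, wide over the chromosome and alike on all days. For each of the 480 genes the log2 ratio of CPM, with 0.1 CPM added, was taken between WT#20D-17 and each other line on the same day, which gives 15 pairings of line and day. The median over the 480 genes on days 0, 3, 5, 7 and 14 was 0.45, 0.49, 0.40, 0.54 and 0.50 against WT#1-4. It was 0.43, 0.51, 0.41, 0.46 and 0.49 against Nox4-/- #5-8, and 0.44, 0.47, 0.38, 0.53 and 0.48 against Nox4-/- #5-23. The mean of the 5 days was 0.47 ± 0.05 against WT#1-4, 0.46 ± 0.04 against Nox4-/- #5-8 and 0.46 ± 0.05 against Nox4-/- #5-23 (SD, n = 5 days), which is 1.39-fold, 1.38-fold and 1.38-fold. All 15 medians were above 0, the 3 sets sharing the WT#20D-17 libraries.

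None of the other chromosomes had a median this high against any line on any day. Their medians lay between -0.30 and 0.30, except that chromosome 5 reached -0.63 against Nox4-/- #5-23, and the next highest was chromosome 1, at 0.23 ± 0.06, 0.24 ± 0.05 and 0.25 ± 0.04 (SD, n = 5 days) against the same 3 lines. Among WT#1-4, Nox4-/- #5-8 and Nox4-/- #5-23 themselves, the chromosome 14 median stayed between -0.06 and 0.06 in every pairing on every day. Chromosome 14 supplied 4.23 to 4.83% of all counts in the WT#20D-17 libraries (median 4.54%), beside 3.05 to 4.23% in WT#1-4, 2.99 to 3.61% in Nox4-/- #5-8 and 2.90 to 3.74% in Nox4-/- #5-23. The share in the highest WT#1-4 library thus met that of the lowest WT#20D-17 library.

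**Figure D1:**
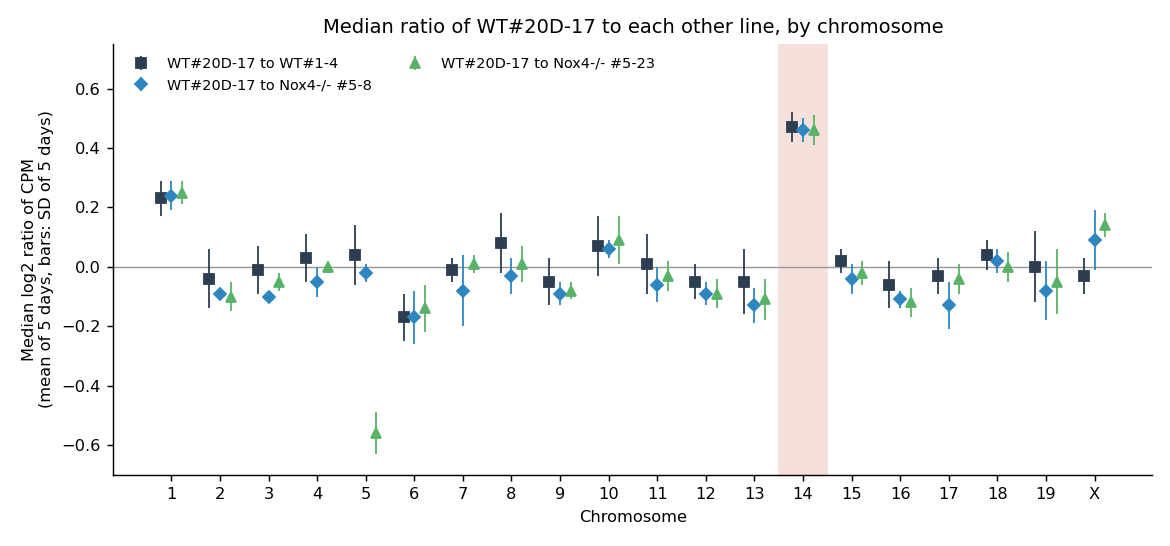
Median log2 ratio of CPM of WT#20D-17 to each other line for each chromosome (x axis), over genes with a mean count of 50 or more, as the mean of 5 days (points) with the SD of the 5 days (bars). Chromosome 14, shaded, stands at 0.46 to 0.47 against all 3 lines, and chromosome 5 stands low against Nox4-/- #5-23 alone.

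The shift was spread over many genes of moderate ratio and was seen at the extremes too. Over the 15 pairings the mean log2 ratio was above 1 for 131 members and below -1 for 54. Beside these stood 1935 and 1981 of the 12588 genes of the other chromosomes. Of the 480 genes, 168 (35.0%) were above 0 in all 15 pairings, where 15.4% of all 13068 genes were, and 51 (10.6%) were below 0 in all 15, where 15.8% of all genes were. The mean ratio was above 0 for 344 (71.7%), beside 47.9% of the 12588 genes of the other chromosomes. Its quartiles were -0.15 and 1.12 around a median of 0.48, and those of the other chromosomes -0.57 and 0.52 around -0.04, so that both quartiles and the median were moved upwards. By edgeR's exact test of WT#20D-17 against the other 3 lines together (FDR under 0.01), 189 members (39.4%) were called higher and 55 (11.5%) lower, beside 18.4% and 17.4% of all genes of that mean. The genes were selected on this contrast, and nothing further is read from these counts.

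Because a gene can reach a mean count of 50 through 1 line alone, the members were also divided by where they reached it. Both in WT#20D-17 and over the other 15 libraries, 406 reached it, with a median ratio of 0.45, beside -0.03 for 11014 genes of the other chromosomes. The 39 that reached it only through WT#20D-17 had a median of 4.94 and the 35 that reached it only through the other lines a median of -2.89, as the division makes them. The 126 members that varied least in the other 3 lines (an SD under 0.3 over 15 libraries) had a median of 0.47 with quartiles of 0.10 and 0.75, and 43.7% of them were above 0 in every pairing, beside a median of -0.03 and 12.8% for 2800 such genes elsewhere. By level, the median was 0.64 for 104 members with mean counts of 50 to 200, 0.43 for 156 from 200 to 1000, 0.45 for 198 from 1000 to 5000 and 0.46 for 22 above that. In the same classes the genes of the other chromosomes had medians of 0.16, -0.03, -0.06 and -0.1, so the lowest class was the highest there too. The members' median was above that of the other chromosomes in each class.

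**Figure D2:**
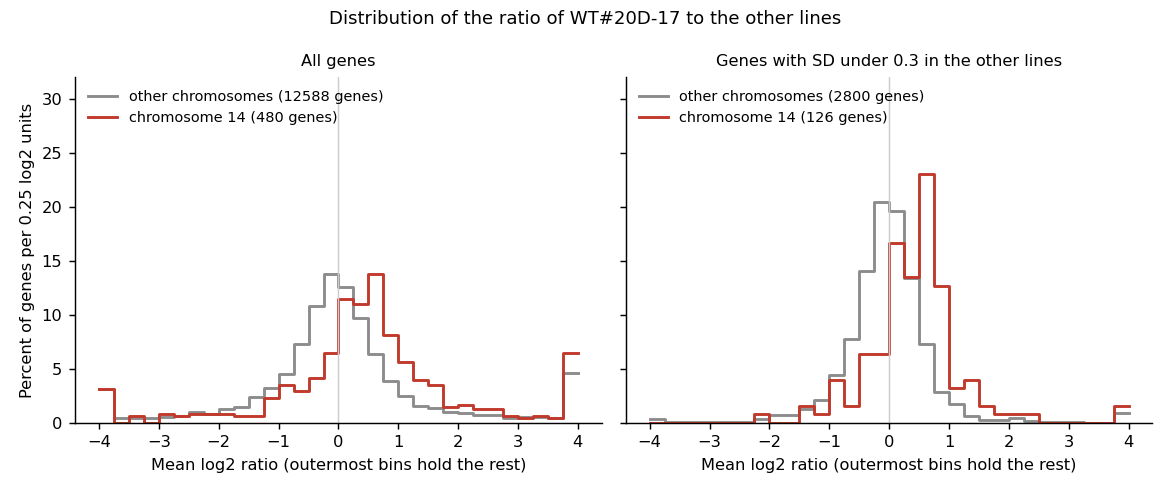
Share of genes (y axis, percent per 0.25 log2 units) by mean log2 ratio of WT#20D-17 to the other lines (x axis), for chromosome 14 (red) and the other chromosomes (grey), with all genes on the left, the genes with an SD under 0.3 in the other 15 libraries on the right, and all values beyond the axis in the outermost bins. The red curve lies to the right of the grey one in both, with medians of 0.48 against -0.04 and of 0.47 against -0.03.

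Along the chromosome the ratio was above 0 nearly throughout, and it was highest toward the distal end. Of 13 windows of 10 Mb, 11 held 10 or more members, and the median of each of these was above 0. The lowest medians were 0.08 from 10 to 20 Mb (21 genes) and 0.20 from 30 to 40 Mb (50 genes) and from 40 to 50 Mb (43 genes). From 50 to 80 Mb the 3 windows held 113, 64 and 59 members and had medians of 0.39, 0.63 and 0.56. The window from 110 to 120 Mb had a median of 1.10, and all 12 of its genes were above 0 in at least 8 of 15 pairings. In the last window, from 120 to 130 Mb, the median of 17 genes returned to 0.22, and 2 of them were above 0 in every pairing.

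At finer scale, 14 of 16 windows of 5 Mb and 441 of 456 overlapping runs of 25 neighbouring genes had a median above 0. The exceptions were 15 to 20 Mb, at -0.26 (13 genes), and 40 to 45 Mb, at -1.48 (10 genes). In the latter, Gm49146, Gm8126, Gm9732, Gm7324 and Gm32857 stood between -5.65 and -2.79 while Tspan14, Fam213a, Gm47547 and the pseudogene Gm16439 stood between 2.04 and 5.53. Most of these are numbered gene models, 1 a transcribed pseudogene, and reads from near-identical copies could be split between them, so these 10 genes are uncertain. The lowest run, from Rpp14 to Ube2e2 (chr14:8080367-18894267), had a median of -0.19, and the highest, from Mycbp2 to Farp1 (chr14:103113411-121283744), one of 0.91. The levels of Mycbp2, an E3 ubiquitin ligase of axons, were 151, 222, 322, 301 and 370.1 CPM on the 5 days in WT#20D-17 and between 48.2 and 197 in the 15 other libraries, so that the day 0 library alone fell among the others.

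**Figure D3:**
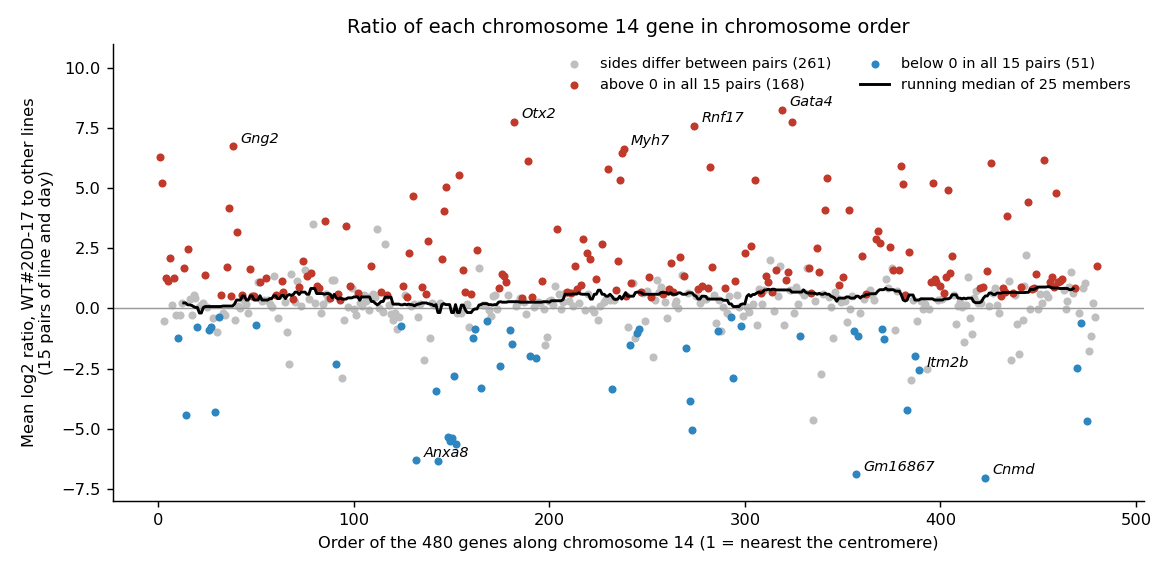
Mean log2 ratio of WT#20D-17 to the other lines over 15 pairings (y axis) for each of 480 genes in their order along chromosome 14 (x axis). Red points (168) were above 0 in every pairing, blue points (51) below 0 in every pairing, and the running median of 25 genes (line) stays between -0.19 and 0.91 while single genes range from -7.05 to 8.26.

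Single genes moved far more than the chromosome. On average, 83 members lay more than 1 log2 unit above the median of their 10 Mb window and above it against each of the 3 lines, 74 lay as far below, and 323 did neither. The neighbours of Gata4 show the range within 1 Mb. Neil2, a DNA glycosylase gene just beside it, had a mean ratio of 1.77, Fdft1, of squalene synthesis, 0.52, and Tdh, of threonine breakdown, -0.69, while Gata4 itself stood at 8.26.

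The 3 highest ratios were those of Gata4, Sox7 and Otx2. Gata4 (chr14:63198922-63271692, minus strand), a zinc finger factor of endoderm and heart, stood at 84.5, 315, 655, 602 and 643 CPM on days 0, 3, 5, 7 and 14 in WT#20D-17. It was at 0, 0.0397, 0.261, 2.96 and 1.04 CPM in WT#1-4, at 3.23, 2.77, 2.56, 1.49 and 1.81 in Nox4-/- #5-8 and at 2.49, 1.51, 1.36, 1.42 and 1.09 in Nox4-/- #5-23. Its lowest WT#20D-17 library was above all 15 others, and its level there was higher on the later days than on day 0.

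Otx2 (chr14:48657677-48673819, minus strand), which holds the promoter printed first, went the other way in time. In WT#20D-17 it stood at 191, 174, 74.6, 69.6 and 15.4 CPM, highest on day 0. In the other lines it was at 0 on day 0, reached 2.12 CPM in WT#1-4 and 0.965 in Nox4-/- #5-8, and stayed at 0.0888 or less in Nox4-/- #5-23. Its mean ratio was 7.77, and an annotated gene overlaps it on the opposite strand, so that its count rests on the strand setting of the counting, which is not given in the sources used here. The same holds for Gng2, Myh6, Myh7, Bmp4, Anxa8, Gm16867, Gm32857, Nisch, Xpo7 and Rb1, and, among genes named in the tested comparisons, for Il17rb, Fgf9, Wnt5a, Slc7a7, Dach1, Kcnma1, Fam124a, Gch1, Atp12a, Lacc1, Fhit, Loxl2, Chdh, Wdhd1 and Tdh. It also holds for Nid2, Sec24c, Arf4, Vdac2, Ctsb, Fdft1, Supt16, Top2b, Hmbox1, Bmpr1a, Rpl15, Kctd12 and Gm16439, and further genes named here may share this limit.

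Sox7 (chr14:63943673-63950732, plus strand), a factor of primitive endoderm and of endothelium, stood at 17.4, 13.4, 18.7, 31.7 and 116 CPM in WT#20D-17. It had at most 9 counts in a WT#1-4 library, at most 2 in Nox4-/- #5-8 and 0 in all 5 of Nox4-/- #5-23. Against the floor of 3 counts per library, its level was at least 97.7-fold higher than in Nox4-/- #5-23 on every day. Fgf17, a growth factor of the early streak and midbrain border, went in WT#20D-17 from 22.7, 19.3, 4.84 and 2.40 CPM to 0.157 on day 14, and at 3 counts that last library was no longer apart from the others, which had 0 to 3 counts.

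Bmp4 had 15.5, 60.4, 102, 72.8 and 22.4 CPM in WT#20D-17, between 4.60 and 17.6 in WT#1-4, between 9.30 and 31.1 in Nox4-/- #5-8 and between 4.57 and 22.8 in Nox4-/- #5-23. It was above each other line on days 0, 3, 5 and 7 and below Nox4-/- #5-8 on day 14, with a mean ratio of 1.68. Zic2, a zinc finger factor of the epiblast and neural plate, crossed over. It went from 107 CPM on day 0 to 4.41 on day 14 in WT#20D-17 and stayed between 27.7 and 83.2 in the other lines, for a mean ratio of -1.14.

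Of 29 germ layer and patterning regulators listed, all had a nonzero value in some library and 20 were among the members. Of these 20, 10 were above 0 in every pairing and 1, Fgf9, was below, and their median ratio was 1.69 beside 0.48 for all 480. Some of them, such as Sox7 and Fgf17, reached the mean count of 50 through WT#20D-17 alone. The ratio of such genes is above 0 as that limit makes it, so the list's median is not read as a trait of these regulators. Klf5, a factor of the inner cell mass and of epithelia, had a ratio of 3.86, Sox21 4.79, Ednrb 4.44 and Il17rd, an inhibitor of FGF signalling, 3.65. Bmpr1a, the receptor of the BMP signals and the most abundant by mean count, had 0.61. The endoderm and mesoderm marker sums also reached their highest values in WT#20D-17, as given above. Over its days, the endoderm sum rose from 31.5 CPM on day 0 to 1028 on day 14. Gata4 and Sox7 rose over these days, while Otx2, Fgf17 and Zic2 fell. The part of the marker sums in the ratios was not tested.

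The cardiac myosin genes were the other pair at the top. Myh7 (chr14:54970684-54994626, minus strand), the slow myosin heavy chain, stood at 0.574, 7.19, 72.7, 96.1 and 117 CPM in WT#20D-17 and reached 1.82 in WT#1-4, 0.153 in Nox4-/- #5-8 and 0.138 in Nox4-/- #5-23. Myh6, the fast chain beside it, stood at 3.28, 2.5, 19.6, 23.7 and 43.8 CPM in WT#20D-17, was at 0 in all 10 Nox4-/- libraries and reached 0.694 in WT#1-4. WT#20D-17 was above the other lines on the same day for both genes, though its day 0 library of Myh7 lay below 1 later library of WT#1-4. The mean ratios were 6.63 and 6.45, and since these 2 genes are close in sequence, reads could be shared between them. Of 8 cardiac and muscle genes listed, 5 were members, all 5 with a mean ratio above 0 and 3 above 0 in every pairing, with a median of 3.31. Myh6 and Myh7 reached the mean count of 50 through WT#20D-17 alone, and the ratio of such genes is above 0 as that limit makes it. The median of this list is therefore not read as a trait of cardiac genes.

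Rnf17, a gene of male germ cells, and Gng2, a G protein subunit, completed the 6 highest. Rnf17 went from 66.1 CPM on day 0 to 7.61 on day 14 in WT#20D-17, with 1 count in the other 15 libraries together. It was at least 54.7-fold higher than Nox4-/- #5-8 and 69.6-fold higher than Nox4-/- #5-23 on every day, against the floor of 3 counts. Gng2 stood between 21.6 (day 14) and 122 CPM (day 3) in WT#20D-17 and at 1.75 or less in every other library. The pseudogene Rps3a2 had a ratio of 6.03 at a mean count of 2479 with an SD of 0.42 over the pairings. Its sequence is that of a ribosomal protein gene copied elsewhere in the genome, and its counts are uncertain.

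**Figure D4:**
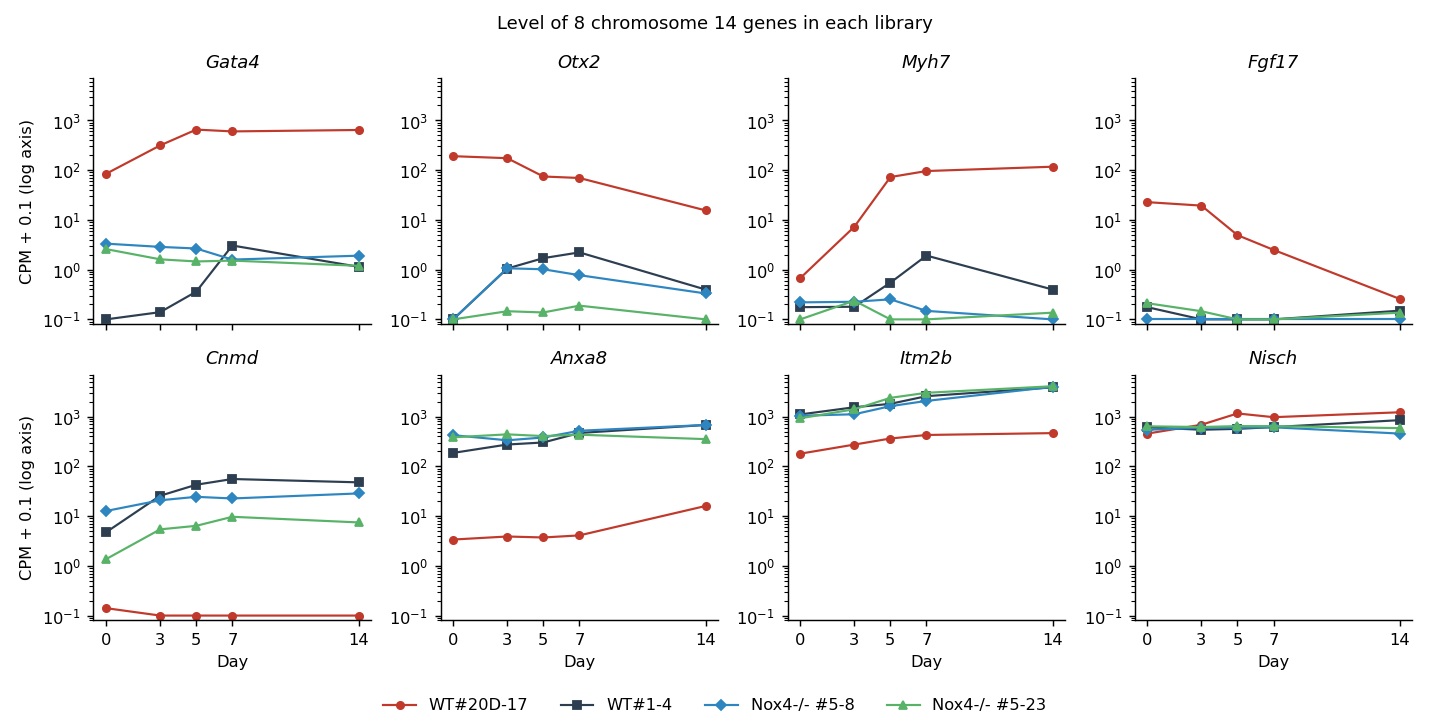
Level of 8 chromosome 14 genes (y axis, CPM + 0.1, log axis) by day (x axis) in the 4 lines, 1 library per point. Gata4, Otx2, Myh7 and Fgf17 lie highest in WT#20D-17 (red), Cnmd, Anxa8 and Itm2b lie lowest in it on all days, and Nisch lies below the others on day 0 and above them on days 3, 5, 7 and 14.

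The lowest ratios were as far from the chromosome's median. Cnmd (chr14:79637690-79662170, minus strand), chondromodulin, a matrix protein of cartilage, had a single count in WT#20D-17, on day 0. It stood at 4.63, 25.6, 42.7, 55.6 and 47.6 CPM in WT#1-4, at 12.6, 20.7, 24.3, 22.5 and 28.5 in Nox4-/- #5-8 and at 1.26, 5.32, 6.28, 9.59 and 7.36 in Nox4-/- #5-23. Its mean ratio was -7.05, and its neighbour Sugt1 on the centromere side had 0.90. No CG was found in the Cnmd window printed above.

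Anxa8 (chr14:34085981-34100571, plus strand), a membrane-binding annexin of epithelia, stood at 3.28, 3.79, 3.62, 4.00 and 15.9 CPM in WT#20D-17. In the other lines it was between 187 and 680.0 CPM in WT#1-4, between 334 and 681 in Nox4-/- #5-8 and between 353 and 441 in Nox4-/- #5-23. The groups did not overlap, and the mean ratio was -6.31. 2610528A11Rik, at -6.33, was higher on day 14 than on day 0 in all 4 lines, from 0.0410 to 4.78 CPM in WT#20D-17 and from 2.28 to 607 in Nox4-/- #5-8. Gm16867 had 5 counts on day 0 and none later in WT#20D-17 and 153 to 535 in the other 15 libraries. It overlaps Entpd4, which had a ratio of -0.95 and whose near-identical copy Entpd4b had one of -1.14, and reads could be split among these genes.

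The long noncoding RNA Gm32857, at 0.0525 CPM or less in WT#20D-17 and 1.86 to 14.8 in the other lines, and the gene model Gm8126, at 0.0872 or less and 1.46 to 15.0, completed the 6 lowest with ratios of -5.65 and -5.51. Both lie in the uncertain stretch from 40 to 45 Mb.

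Itm2b and Rb1 lie beside each other and were both lower in WT#20D-17 on every day. Itm2b (chr14:73362226-73385289, minus strand), a transmembrane precursor of the BRI2 peptides, stood at 179.9, 274, 363, 428 and 466 CPM in WT#20D-17 against 1107, 1546, 1810.0, 2583 and 3882 in WT#1-4. It was at 1044, 1117, 1625, 2073 and 3971 in Nox4-/- #5-8 and at 927, 1409, 2388, 3018 and 4089 in Nox4-/- #5-23. It was higher at each later day in every line, and its mean ratio was -2.57 with an SD of 0.34 over the 15 pairings. Rb1, which restrains entry into S phase, stood at 51.5, 33.7, 32, 28 and 36.7 CPM in WT#20D-17 and at 83.4 or more in each other library, for a ratio of -1.98. Lpar6, which lies within Rb1, had -0.53 and the next gene, Med4, 0.31, so the low values did not extend along the chromosome.

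Abundant genes near the median were taken as examples of the middle of the range. Nisch, the imidazoline-binding protein nischarin, had a ratio of 0.49, Bnip3l, a mitophagy receptor, 0.43, Xpo7, a nuclear exporter, 0.56 and Ktn1, kinectin of the endoplasmic reticulum, 0.55. Xpo7 stood at 318, 263, 247, 248 and 214 CPM in WT#20D-17, at 211, 202, 204, 191 and 169.5 in WT#1-4, at 191, 188, 157, 149 and 99.8 in Nox4-/- #5-8 and at 218, 189.7, 156, 161 and 162 in Nox4-/- #5-23. It was higher in WT#20D-17 in all 15 pairings of the same day, by 0.28 to 1.10 log2 units. Nisch was not as regular. It stood at 456, 687, 1160, 976 and 1225 CPM in WT#20D-17 and between 457 and 850.2 in the others, so that its day 0 library was the lowest of the 20 and its later ones, except day 3, the highest. It overlaps Tnnc1 on the opposite strand.

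Tpt1, the translationally controlled tumour protein and the member of highest mean count (72280), stood at 4607, 4768, 4271, 3864 and 6056 CPM in WT#20D-17. It was at 2423 to 4993 CPM in WT#1-4, 1996 to 4133 in Nox4-/- #5-8 and 1788 to 2427 in Nox4-/- #5-23, and its mean ratio was 0.92. Without it, the other ribosome and translation genes spread around the chromosome's median, with Rps24 at 0.26 and Rpl15 at -0.35, the latter below 0 in every pairing. Processed copies of ribosomal protein genes make both of these uncertain. The list had 8 members, a median of 0.44, and 4 genes above and 1 below 0 in all pairings.

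The other lists of housekeeping genes had medians between 0.23 and 0.70, beside 0.48 for all 480. Cell cycle genes had a median of 0.52 (15 members, 7 above 0 in every pairing and 1, Rb1, below), with the cohesin acetyltransferase Esco2 highest at 2.52. Chromatin and transcription genes had 0.45 (24 members, 7 and 1), with Supt16 of the FACT complex at 0.66, Top2b at -0.40 and Hmbox1, the 1 below, at -1.16. RNA processing genes had 0.28 (13 members, 5 and 0), and Hnrnpc, the most abundant of them by mean count, stood at -0.01. Proteasome and ubiquitin genes had 0.42 (14 members, 3 and 0) and nuclear transport genes 0.56 (5 members, 2 and 0), where the importin Ipo5 stood at 0.91. Mitochondrial genes had 0.23 (19 members, 3 and 1), with the channel Vdac2 at 0.68, and metabolic genes 0.37 (12 members, 4 and 0), with transketolase Tkt at 0.93 and cathepsin B, Ctsb, at 1.59.

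Secretory pathway genes had 0.70 (14 members, 7 and 0), among them Sec24c, of the COPII coat, at 1.12 and Arf4 at 0.83. Adhesion and matrix genes had 1.3 (12 members, 6 and 1), with the basement membrane protein Nid2 at 4.19, the collagen cross-linking enzyme Loxl2 at 2.17 and galectin 3, Lgals3, at -2.41. The fibroblast marker sum also reached its highest value in WT#20D-17, up to 2809 CPM against at most 106 elsewhere. On day 0 it was lower there (22.3 CPM) than in WT#1-4 (77.3), and its part was not tested. Neural genes had 0.95 (5 of 11 listed were members, 1 and 0), from Kctd12 at -1.90 to Nefl at 4.10. Of the T cell receptor and granzyme list 2 were members, Irf9 at 0.47 and Ripk3 at 0.03.

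**Figure D5:**
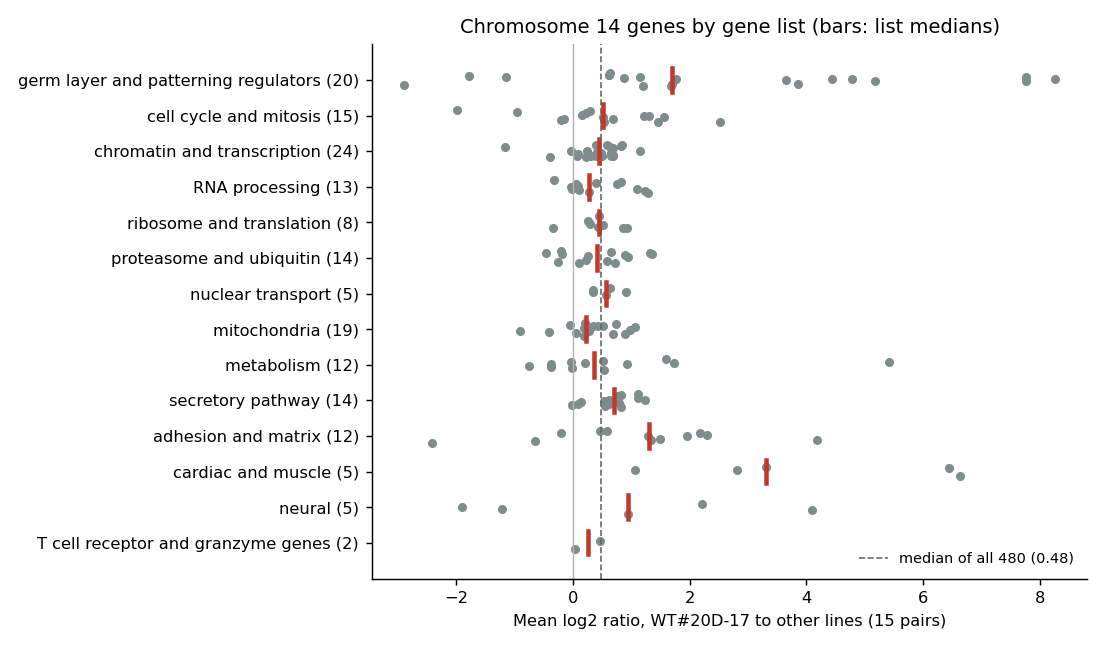
Mean log2 ratio of WT#20D-17 to the other lines (x axis) of the chromosome 14 genes in 14 lists (y axis, number of members in brackets), with each gene as a point and each list's median as a bar. The dashed line marks 0.48, the median of all 480 genes, the mitochondrial (0.23) and RNA processing (0.28) lists lie to its left, and the germ layer (1.69), adhesion and matrix (1.3) and cardiac (3.31) lists lie to its right. Members that reached the mean count of 50 through WT#20D-17 alone lie above 0 as that limit makes them.

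At the limit that chose the members, Gm16439, Rpph1 and Fam124a were just inside, with mean counts of 51.3, 51.6 and 52.0 and ratios of 5.53, -1.98 and 2.01. Just outside were 4930480K23Rik, 2410022M11Rik and Gm21451, with mean counts of 48.4, 48.3 and 47.4 and ratios of 0.73, -0.25 and -3.30.

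The comparison of the Nox4-/- lines with WT#1-4 did not use WT#20D-17 and asks what the loss of Nox4 went with on chromosome 14. By edgeR's exact test over all genes, 11 members (2.29%) were higher and 18 (3.75%) lower at an FDR under 0.01, beside 3.02% and 5.41% of all genes with a mean count of 50 or more. Chromosome 14 thus ranked 19th of 20 chromosomes in its share of calls (6.04%, others from 5.28% to 15.9%), and the members' median fold change was 0.04 log2 units. The quasi-likelihood test called 19 members (3.96%, beside 5.77% of all genes) without and 57 (11.9%, beside 14.6%) with the day as a block. Leaving out day 3, 5 or 7 gave 19, 18 or 13 by the exact test, or 3.96, 3.75 and 2.71% of members beside 5.69, 5.52 and 4.73% of all genes. When WT#20D-17 stood in for WT#1-4, 239 members (49.8%) were called, beside 38.0% of all genes, in a contrast that holds the ratios the chromosome was selected on. The 5 libraries of WT#1-4 come from 1 clone, so the spread behind these p-values is that between days.

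The falls were led by genes that were highest in WT#1-4 among the 4 lines. Htr2a, a serotonin receptor gene, stood at 51.2, 31.7, 38.4, 18.5 and 4.71 CPM in WT#1-4 and had at most 3 counts in each of the 10 Nox4-/- libraries. Its fitted change of -9.19 log2 units (edgeR exact test, FDR 2.41e-41) depends on the prior count, and WT#20D-17, the other wild type line, had at most 2 counts in any library too. Dach1, a transcription cofactor of eye and limb, stood at 10.1, 11.2, 9.17, 10.1 and 5.50 CPM in WT#1-4, at 0.421 or less in the Nox4-/- lines, and between 0.410 and 2.05 in WT#20D-17 (change -6.28, FDR 3.89e-30 by edgeR's exact test). Scara3, a scavenger receptor, changed by -3.71, the urokinase gene Plau by -2.87 and the potassium channel gene Kcnma1 by -2.78 log2 units, with FDRs from 6.39e-12 to 6.35e-14 by the same test. Against WT#20D-17 instead, the Nox4-/- lines were higher in Scara3 (1.74) and Kcnma1 (1.52) and still lower in Dach1 (-3.45) and Plau (-1.6), and Htr2a had too few counts on both sides to give a direction.

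Among the rises were Il17rb, an interleukin receptor (2.74), Fgf9 (2.5), Wnt5a (1.87), the amino acid transporter Slc7a7 (1.70) and the long noncoding RNA Gm32857 (1.68). Wnt5a, a ligand of gastrulation movements, stood at 2.58, 2.07, 2.65, 2.05 and 1.14 CPM in WT#1-4. It was at 15.7, 8.18, 7.34, 6.41 and 5.01 in Nox4-/- #5-8 and at 9.37, 5.96, 6.58, 6.62 and 6.05 in Nox4-/- #5-23, so that no Nox4-/- library overlapped WT#1-4 (difference of means 1.81 ± 0.25 log2 units, SE, 15 libraries; FDR 3.15e-06 by edgeR's exact test). In WT#20D-17 it went from 0.861 to 48.9 CPM by day 7 and back to 7.24 on day 14. Against that line the change was -1.51 for Wnt5a and -2.43 for Slc7a7, which stood at 77.8 to 282 CPM in WT#20D-17. Of the 20 germ layer genes 2 were called higher and 3 lower, beside 3.02% and 5.41% of all genes with a mean count of 50 or more. Nothing is read from counts this small. Gata4, at 0 to 2.96 CPM in WT#1-4 and 1.09 to 3.23 in the Nox4-/- lines, did not pass (FDR 0.503 by edgeR's exact test), and neither did Otx2, Sox7, Bmp4 or Fgf17.

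The 2 Nox4-/- lines were compared to see how far 2 clones of 1 genotype differ. By edgeR's exact test, 6 members (1.25%) were higher in Nox4-/- #5-23 and 13 (2.71%) lower, beside 2.17% and 1.9% of all genes. The quasi-likelihood test called 9 members (1.88%, beside 1.66% of all genes) without and 57 (11.9%, beside 13.7%) with the day as a block. Leaving out day 3, 5 or 7 gave 12, 7 or 9 by the exact test, or 2.5, 1.46 and 1.88% of members beside 2.06, 1.55 and 1.67% of all genes. Chromosome 14 ranked 6th in its share of calls (3.96%), far under chromosome 5 (13.1%).

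Fhit, a tumour suppressor gene that spans a fragile site, stood at 7.91, 7.80, 8.53, 9.05 and 7.70 CPM in Nox4-/- #5-8 and at 0.520, 1.51, 1.40, 1.73 and 0.729 in Nox4-/- #5-23 (change -2.80, FDR 1.52e-10 by edgeR's exact test). WT#1-4 and WT#20D-17 were at 0.722 to 1.67 and 0.861 to 4.04 CPM, so Nox4-/- #5-8 was the line that stood high. Ripk3, of necroptosis, showed the same order, with 18.8 to 37.5 CPM in Nox4-/- #5-8 and 4.65 to 10.8 in Nox4-/- #5-23 (change -1.87, FDR 3.57e-08). For Efs, an adaptor of Src kinases, Nox4-/- #5-23 was low instead, with at most 9 counts in a library, against 1.04 to 4.48 CPM in Nox4-/- #5-8 and 36.6 to 65.7 in WT#20D-17 (change -4.09, FDR 6.55e-08 by edgeR's exact test). Tnfsf11, the RANK ligand, changed by -2.43 and Dmtn, an actin-binding protein of red cells, by -2.41, the latter no longer called by the quasi-likelihood test or without day 5.

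Higher in Nox4-/- #5-23 were Fam124a (2.81), Gch1, of tetrahydrobiopterin synthesis (2.45), the proton pump gene Atp12a (1.6), Lacc1 (1.28) and Rb1 (0.96). Gch1 stood at 5.95, 8.25, 13.8, 14.5 and 18.2 CPM in Nox4-/- #5-23 and at 1.56, 1.13, 2.41, 2.07 and 3.90 in Nox4-/- #5-8, where it was also below every library of the wild type lines. The call of Rb1 (FDR 0.00573 by edgeR's exact test) was lost in the quasi-likelihood test and without day 3, 5, 7 or 14, and that of Lacc1 without day 5.

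The change from day 0 to day 14 asks what differentiation went with in all lines, and chromosome 14 did not stand out in it. In edgeR's quasi-likelihood test with a term for the line, 89 of 479 members (18.6%) rose and 68 (14.2%) fell at an FDR under 0.01, beside 18.0% and 16.9% of all genes with that mean. The share called ranked 16th of 20 chromosomes. Without the line term 48 members (10.0%) were called, beside 12.6% of all genes, and the counts were 104 without WT#1-4, 106 without Nox4-/- #5-8, 76 without Nox4-/- #5-23 and 183 without WT#20D-17, beside 22.4, 24.2, 18.1 and 39.4% of all genes.

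Of the matrix and adhesion list, 8 of 12 members rose and none fell, beside 18.0% rising and 16.9% falling among all genes with a mean count of 50 or more. The lists were chosen with earlier results of these data known, and the count was not tested against those shares. On day 0 Loxl2 stood at 43.6, 16.3, 5.43 and 5.05 CPM in WT#20D-17, WT#1-4, Nox4-/- #5-8 and Nox4-/- #5-23, and on day 14 at 1317, 538, 154 and 382 (mean change 5.24 ± 0.65 log2 units, SD, 4 lines; FDR 7.25e-07 by edgeR's quasi-likelihood test). Clu, the secreted chaperone clusterin, rose by 4.45 ± 0.68 (FDR 1.09e-06), Chdh, of choline breakdown, by 4.52 ± 0.40 (FDR 6.79e-06), and Rgcc and Lgals3 by 4.98 ± 2.17 and 4.30 ± 1.56. Rgcc changed by 7.42 in WT#1-4 and by 2.13 in WT#20D-17, which is the wide spread behind its mean. The fibroblast marker sum was higher on day 14 in both wild type lines, while Loxl2 was higher on day 14 in all 4 lines. In both Nox4-/- lines the sum was lower, going from 12.3 to 6.31 and from 17.2 to 3.14 CPM. In WT#1-4 its rise, from 77.3 to 106 CPM, lay mainly in Thy1 (118 to 714 counts). There Col1a1 went from 598 to 666 counts, and Col3a1 (631 to 415), Postn (363 to 139) and Col1a2 (324 to 204) fell. Thy1 fell in WT#20D-17 (344 to 49) and rose in both Nox4-/- lines (35 to 115 and 28 to 45), so the direction of the WT#1-4 sum rests largely on 1 marker. The part of other cell types in these changes was not tested.

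More cell cycle, chromatin and nuclear transport genes fell than rose. Of the cell cycle list 7 of 15 members fell and none rose, of chromatin and transcription 7 of 24 fell and 1 rose, of RNA processing 6 of 13 fell and 2 rose, and of nuclear transport 4 of 5 fell and none rose. Among all genes with a mean count of 50 or more, 16.9% fell and 18.0% rose. The counts of these short lists were not tested against those shares. Mir17hg, the host of the miR-17-92 microRNAs, went from 143, 63.8, 66.2 and 72.6 CPM on day 0 to 13.0, 6.25, 13.8 and 19.0 on day 14 in the lines in the same order (mean change -2.74 ± 0.77 log2 units, SD, 4 lines; FDR 9.49e-06 by edgeR's quasi-likelihood test). Wdhd1, a replication factor, changed by -2.38 ± 0.85, Pnma2 by -3.92 ± 1.18 and Slitrk5 by -2.35 ± 0.87. Tdh, which serves threonine-dependent growth of mouse pluripotent cells, fell from 211 to 5.62 CPM in WT#20D-17 and from 59.0 to 49.5 in WT#1-4, a mean change of -2.23 ± 2.12, and its call was lost without WT#20D-17, Nox4-/- #5-8 or Nox4-/- #5-23. Of the germ layer genes 1 of 20 rose, Bmp4 (1.54 ± 0.70, FDR 0.00196), and 3 fell. Gata4 changed by 2.93 in WT#20D-17, 3.51 in WT#1-4, -0.80 in Nox4-/- #5-8 and -1.12 in Nox4-/- #5-23, and did not pass over the 4 lines (FDR 0.586 by edgeR's quasi-likelihood test). Its change in WT#1-4 rests on the 0.1 CPM added, since it had no counts there on day 0.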

How the data were processed

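RNA-seq libraries (TruSeq Stranded mRNA) from 4 lines on 5 days were compared. The authors deposited a table of expected counts per gene; the submitters' processing notes name bcl2fastq, STAR 2.6.0c, RSEM 1.3.1, mm10 (GRCm38) and Ensembl release 97, and the strand setting of the counting is not given in the sources used here. The table's values were rounded to whole numbers, since 9.92% of them held decimals. Positions and biotypes were taken from GENCODE M21, which held 55480 of the 55573 IDs, and promoters from RefSeq (GRCm38.p6). Totals of 20294935 to 27707994 counts put 3 counts, the floor used for genes at 0, at 0.109 to 0.157 CPM. This floor covers counting error only.

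CPM were computed with TMM factors in edgeR 4.0.16 (R 4.3.3), and 0.1 CPM was added before logs, which understates the ratios of low genes. Genes of a mean count of 50 or more were used. WT#20D-17 against the others, Nox4-/- against WT#1-4 and Nox4-/- #5-23 against #5-8 were tested by edgeR's exact test, as in the study's methods, and day 14 against day 0 by the quasi-likelihood test (limma 3.58.1 beneath it) with upper quartile factors, edgeR's filterByExpr and the line as a term. P-values were adjusted by Benjamini-Hochberg over all genes tested, with an FDR of 0.01. Libraries of a line are days, and no label ties them to separate cultures, so p-values measure the spread between these libraries alone.

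Members and lists were chosen with earlier results of these data known. Genes were named by rule: the 6 highest and 6 lowest mean ratios among genes on 1 side of 0 in all 15 pairings, the 4 most abundant near the median, genes apart from their window, 3 on each side of the count limit, up to 5 rises and 5 falls without overlap per comparison, the 4 most abundant of each list, and the main germ layer regulators. Neighbouring genes, further list members, Rps3a2 and Irf9 were named after their values were seen.

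The labels give each library's day, which is shared by the lines. Over the 5 days, the deviations of same-day libraries correlated at 0.29 to 0.81 between the Nox4-/- lines, and at 0.17 to 0.70 and -0.08 to 0.70 between each of these and WT#1-4. The alternatives were DESeq2 1.42.0 size factors and test, the quasi-likelihood test with and without blocks, other pseudocounts, filters and thresholds, centring, and leaving out each day or line. The scripts were tested on simulated data with 200 changed genes in each comparison. Changes of 2 log2 units were recovered for 97 to 100% of these genes and changes of 0.5 for 0%. At the simulated spread, changes as small as 0.5 thus went uncalled. The simulated libraries were independent, with the same dispersion for every gene and no effect of day or line, so these shares do not carry over to the real libraries. There, for Nox4-/- against WT#1-4, some changes above 2 log2 units were called, such as Fgf9 (2.5), and others were not, such as Rgcc (-2.28).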

Additional observations from a re-analysis of the deposited data

Results flagged for a closer look

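In groups of 5 days, a single day stood far from the other 4 for 6 ratios of WT#20D-17 to another line, of 51 groups looked at. A chance rate of about 1 in 20 would hold for independent replicates. These are ordered days, groups share libraries, and each day singled out was day 0 or day 14, so no excess is read from the 6. The ratio of Sox7 to WT#1-4 was 10.19 on day 14 and between 6.17 and 7.08 on the other days. The ratio of Cnmd on day 0 was -5.07 to WT#1-4, -6.49 to Nox4-/- #5-8 and -3.27 to Nox4-/- #5-23, and on the other days it lay between -9.12 and -8.0, between -8.16 and -7.70 and between -6.60 and -5.76. These 3 share 1 WT#20D-17 library, in which Cnmd had 1 count. The ratio of Gm16867 to WT#1-4 was -5.63 on day 0, where WT#20D-17 had 5 counts, and between -7.34 and -7.03 on the others. The ratio of Anxa8 to Nox4-/- #5-23 was -4.46 on day 14 and between -6.83 and -6.73 on the others.

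For 9 of 95 genes looked at, the change from day 0 to day 14 went one way in both wild type lines and the other way in both Nox4-/- lines. The mean change of the wild type lines exceeded that of the Nox4-/- lines by 4.18 log2 units for Gata4 (3.22 against -0.96), 1.32 for Sec24c (0.83 against -0.49), 1.31 for Mycbp2 (0.67 against -0.64), 1.14 for Nisch (0.95 against -0.19) and 0.64 for Gm32857 (0.49 against -0.15). The difference was -2.96 for Tnfsf11 (-2.21 against 0.75), -2.24 for Gng2 (-1.45 against 0.79), -1.94 for Slc7a7 (-0.92 against 1.03) and -1.42 for Ripk3 (-0.59 against 0.83). These differences were not tested, and some of the single changes are small. Signs that fell at random over the lines would also give such genes, and their share among all genes is not given here. The 95 genes had themselves been named from these data, so the 9 are not read as a difference between genotypes. Gm32857 had at most 1 count in any WT#20D-17 library. Gata4 had no counts on day 0 in WT#1-4, so its change in that line (3.51) rests on the 0.1 CPM added.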

How the results depend on the processing

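The median ratio of chromosome 14 genes was 0.00 to each of the 3 lines with no limit on low counts, where many genes are at 0 in both libraries. Centred on the other chromosomes it was 0.51 to Nox4-/- #5-8 and 0.52 to Nox4-/- #5-23, and over the 126 genes with an SD under 0.3 it was 0.41 to Nox4-/- #5-8. Leaving out a day gave 0.46 to 0.49, 0.45 to 0.47 and 0.44 to 0.48 to WT#1-4, #5-8 and #5-23. It gave 189 to 243 calls for WT#20D-17 (39.4 to 50.6% of members, beside 26.6 to 38.0% of all genes). The medians kept within the spread of days under other scalings, pseudocounts and count limits, apart from those named. With 1 or 0.01 CPM added, the ratio was 4.80 or 10.31 for Sox7, 4.38 or 10.78 for Rnf17, -3.96 or -9.99 for Cnmd and -3.93 or -9.65 for Gm16867, since these genes are at or near 0 in some line.

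Of 29 members called for Nox4-/- against WT#1-4, 17 were left at an FDR of 0.001 and 47 were called at 0.05. Of the 19 between the Nox4-/- lines, 11 were left at 0.001. Shares over all genes at these thresholds are not given here, and nothing is read from these counts. The quasi-likelihood test gave 19 and 9, and with the day as a replicate block 57 and 57. For Nox4-/- against WT#1-4, leaving out a day or line gave 13 to 35 (2.71 to 7.29% of members, beside 4.73 to 9.61% of all genes). Between the Nox4-/- lines, leaving out a day gave 7 to 25 (1.46 to 5.21%, beside 1.55 to 5.61%). For Nox4-/- the count was 239 against WT#20D-17 alone (49.8%, beside 38.0% of all genes) and 96 against both wild type lines (20.0%, beside 16.6%). Both contrasts hold the ratios the chromosome was selected on. In these 2 settings Wnt5a changed by -1.51 and -0.64 and Slc7a7 by -2.43 and -1.51, and against WT#20D-17 alone Scara3 changed by 1.74, Kcnma1 by 1.52 and Htr2a by 0.28, the last on at most 3 counts a library and without a direction to read. For day 14 against day 0, no replicate block gave 48 calls in place of 157 (10.0% of members, beside 12.6% of all genes). Leaving out a line gave 76 to 183 (15.8 to 39.0%, beside 18.1 to 39.4%). Without the block Lgals3, Pnma2, Slitrk5 and Tdh were not called. Kcnma1 was not called with both wild type lines, nor Lacc1, Rb1, Dmtn and Tdh in the settings given with their values. The causes were not tested. Depth limits genes under 0.157 CPM, where 3 counts cannot be told from 0.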
